A study of Arabidopsis thaliana with 6 samples.

Results

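The genes described here encode enzymes and proteins of triacylglycerol and of the lipid droplet in Arabidopsis thaliana. They were taken from a fixed list of 9 gene identifiers, and all 9 were found among the 20754 genes of the table. The genes were selected on their function with their normalized reads in both genotypes already known, and so the differences between genotypes of these 9 genes are given as a description and without p-values. Rosette leaves of wild type (WT, Columbia-0) were compared with those of *fer* (the *fer-4* allele), a line with a T-DNA insertion in the receptor kinase gene FERONIA (FER), with 3 libraries each. The libraries are called column 1 to 3 in the order of the table. Per the labels, seeds germinated on plates in constant light for 10 days, the plants then spent 21 days on soil at 22 degrees with 8 hours of light and 16 hours of dark, and leaves were taken at an age of 4 weeks, without any treatment. The text of the study describes long days and slightly older plants instead. The labelled days on plates and soil together also exceed 4 weeks. Day length was not examined in the values. All *fer* libraries carry 1 and the same insertion allele, and the labels do not say how many plants were pooled in a library or whether the libraries came from separate plants, so that p-values measure the spread between these libraries only. Transcripts were measured by QuantSeq, a method that counts each polyadenylated RNA once, by a tag close to its 3′ end, and levels can therefore be set side by side between genes without correction for length.

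Triacylglycerol is the neutral storage lipid of plants. Its last step joins a further acyl chain to diacylglycerol, taken from acyl-CoA by the diacylglycerol acyltransferases DGAT1, DGAT2 and DGAT3 or from a membrane phospholipid by PDAT1. The product is stored in lipid droplets, whose surface in leaves is covered by caleosins and by lipid droplet-associated proteins (LDAPs), and it is broken down by the lipase SDP1 and then by beta-oxidation in peroxisomes. Seeds hold large amounts of it, while leaves hold little and turn it over quickly, and leaf droplets are known to become more abundant in stress, in infection and in ageing leaves.

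In *fer*, transcripts of DGAT2 were nearly lost, those of the caleosin CLO3 were 2.67-fold as abundant as in WT and those of LDAP1 were 1.36-fold as abundant. The other 6 genes were not called. A gene was called when limma, fitted on log2(value + 1) over all genes, gave a Benjamini-Hochberg adjusted p under 0.05. Called genes were thus 3 of the 9, with 2 higher and 1 lower in *fer*, beside 14.6% of all genes (10.0% higher and 4.52% lower). The WT and *fer* values did not overlap for 4 of the 9, namely DGAT2, DGAT3, CLO3 and LDAP1, beside 31.3% of all genes. The median log2 fold change of the 9 genes was 0.33, and that of all genes was 0.10.

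The upstream sequences of CLO3, LDAP1 and DGAT3 are shown because these 3 genes had higher values in every *fer* library than in any WT library. The same holds for 20.8% of all genes, and DGAT3 was not called. All 3 also share a motif, and their matches were known when they were picked. Each sequence is the 250 bases before the annotated start of the gene on TAIR10.1 from RefSeq, written 5′ to 3′ in the direction of the gene. Capitals mark matches, on either strand, to CACGTG (the G-box), to ACGTG (the core of the abscisic acid response element) and to CCGAC (the core of the dehydration response element).
CLO3 (chr2:14146556-14146805, minus strand): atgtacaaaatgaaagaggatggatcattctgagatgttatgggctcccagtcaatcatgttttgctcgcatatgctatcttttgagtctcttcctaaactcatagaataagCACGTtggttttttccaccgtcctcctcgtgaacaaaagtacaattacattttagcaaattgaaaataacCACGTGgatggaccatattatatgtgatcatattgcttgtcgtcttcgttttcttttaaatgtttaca
LDAP1 (chr1:25238217-25238466, minus strand): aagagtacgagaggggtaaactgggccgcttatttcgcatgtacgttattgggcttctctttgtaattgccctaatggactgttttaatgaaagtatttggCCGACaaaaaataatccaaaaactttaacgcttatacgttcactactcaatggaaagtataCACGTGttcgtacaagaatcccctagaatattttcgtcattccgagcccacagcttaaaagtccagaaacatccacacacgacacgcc
DGAT3 (chr1:17846792-17847041, plus strand): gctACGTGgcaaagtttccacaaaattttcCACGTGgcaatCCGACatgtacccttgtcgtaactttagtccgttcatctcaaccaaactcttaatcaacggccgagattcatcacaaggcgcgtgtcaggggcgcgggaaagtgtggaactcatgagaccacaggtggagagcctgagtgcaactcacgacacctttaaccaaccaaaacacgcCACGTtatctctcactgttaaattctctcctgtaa
CACGTG was found before 3 of the 9 genes, the 3 shown, and before 6.49% of 27443 protein-coding genes. Every CACGTG also holds ACGTG on both strands, so that matches to these motifs overlap. ACGTG was found before the same 3 genes and before 22.9% of all genes. CLO3 had a further ACGTG match that begins 138 bases before the start, while its CACGTG begins 68 bases before the start. In LDAP1 the CACGTG begins 88 bases before the start and in DGAT3 220 bases before it. CCGAC was found before LDAP1, DGAT3 and DGAT2, and before 12.0% of all genes. No match to any of the 3 motifs was found in the same window of DGAT1, PDAT1, SDP1, LDAP3 or LDIP. Among the genes of the table with a CACGTG in this window, 1486 in number, 13.1% were called and higher in *fer*, against 9.85% of the 18448 genes without it. For ACGTG these shares were 13.3% and 9.09%, and for CCGAC 9.27% and 10.2%. These are descriptions of letters in a window, and no factor was measured. The motifs were not part of the plan, and the 3 genes were picked with their values and matches known. The counts are therefore no test of what sets the levels of these genes.

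Whether the plants carried the labelled mutation was examined with FER itself. FER had 264.6 to 286.4 normalized reads in the WT libraries and 5.95 to 10.3 in the *fer* libraries, and limma gave a log2 fold change of -5.02 ± 0.22 (SE). An exact permutation test on the 6 values gave p = 0.1, two-sided, the smallest that 3 against 3 libraries allow. The library totals lay between 4523902 and 4526129 normalized reads. Of 4 mesophyll markers, the defining genes of leaf tissue, all were abundant, and their summed level was 136000 to 139300 in WT and 102400 to 105600 in *fer*, with RBCS1A, LHCB1.1 and RCA lower and GLK1 higher. Of 4 guard cell markers 1, GASA9, was called and lower in *fer* (summed level of the 4 829.9 to 887.3 in WT and 709.2 to 768.4 in *fer*). FAMA went the other way and was not called, at 187.4 to 203.7 in WT and 211.3 to 240.7 in *fer*. MYB60 and the KAT1 channel overlapped between genotypes. The phloem companion cell marker SUC2 overlapped too, at 625.9 to 647.8 in WT and 589.9 to 650.2 in *fer*. The epidermis marker ATML1 fell from 468 to 493 in WT to 292 to 339 in *fer*. Of 5 markers listed under seed storage only LEC1 was analysed, and it reached at most 1.18 in WT and 2.14 in *fer*. The listed genes CRA1, CRU3, SESA3 and OLEO1 were not analysed, so no level can be given for them. Of 3 root markers 2 were analysed, and they summed to at most 10.5 in any library. Of 2 pollen markers 1, VGD1, was analysed, with at most 4.29. SAG12, a marker of late leaf senescence, had 0 to 0.39 normalized reads in WT and 25.3, 35.7 and 48.2 in *fer*, at least 12.1-fold higher when WT is set at a floor of 3 normalized reads. In leaf samples of this kind, fewer cells of a type and less RNA per cell cannot be told apart.

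**Figure D1:**
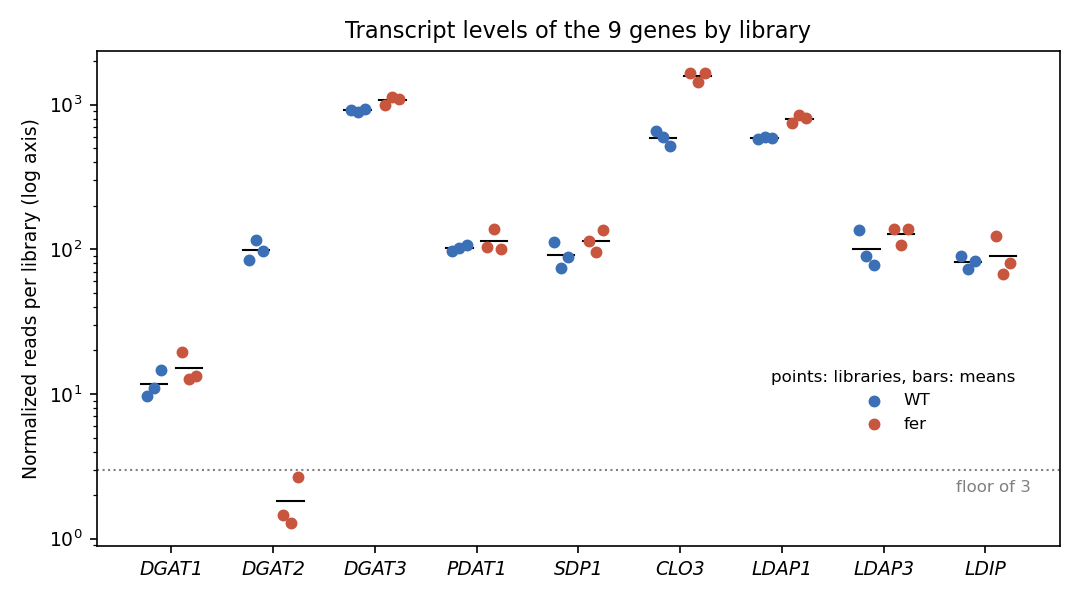
Normalized reads (log axis) of the 9 genes in each of 3 WT libraries (blue) and 3 *fer* libraries (red), with bars at the means and a dotted line at the floor of 3 normalized reads. DGAT2 lies between 83.9 and 115.6 in WT and below the floor in *fer*, and CLO3 moves from 519 to 655 in WT to 1444 to 1647 in *fer*.

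The acyltransferases were compared first, because they make triacylglycerol. In WT, DGAT3 was by far the most abundant of them. DGAT3 (AT1G48300, chromosome 1, 17847042 to 17848338, plus strand of TAIR10.1), which encodes a soluble enzyme of the cytosol, had 918.5, 888.2 and 938.8 normalized reads in WT and 989.6, 1121 and 1092 in *fer*. Every *fer* library lay above every WT library, by a small margin. The means were 915.2 ± 25.4 and 1068 ± 69.1 (SD, n = 3), and the log2 fold change of 0.22 ± 0.08 (SE) was not called.

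PDAT1 (AT5G13640, chromosome 5, 4392937 to 4397541, plus strand), the phospholipid-dependent enzyme that is known to make triacylglycerol in leaves, had 96.7, 101.6 and 107.6 normalized reads in WT and 102.9, 137.3 and 100.4 in *fer*. Only *fer* column 2 lay above the range of WT. The log2 fold change was 0.14 ± 0.15 (SE), and it was -0.0033 without that library.

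DGAT1 (AT2G19450, chromosome 2, 8426117 to 8429853, plus strand), the membrane enzyme known for seed oil, was low in both genotypes. It had 9.62, 11.1 and 14.6 normalized reads in WT and 19.5, 12.7 and 13.4 in *fer*. The groups overlapped, and the log2 fold change was 0.34 ± 0.36 (SE), so that a change of the size seen in LDAP1 was not detectable at this level of reads.

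DGAT2 (AT3G51520, chromosome 3, 19110596 to 19112760, plus strand), a second membrane acyltransferase that shares the reaction of DGAT1 but not its protein family, had 83.9, 115.6 and 97.1 normalized reads in WT. In *fer* it had 1.46, 1.28 and 2.68. All 3 *fer* libraries were thus under the floor, and no value came near those of WT. The means were 98.9 ± 15.9 and 1.81 ± 0.76 (SD, n = 3), and DGAT2 was at least 33.0-fold lower in *fer*.

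The summed level of the 4 acyltransferases overlapped between genotypes. The sums were 1109, 1117 and 1158 normalized reads in WT and 1114, 1273 and 1208 in *fer*. DGAT2 made up 8.77% ± 1.43 (SD, n = 3) of the sum in WT and 0.15% ± 0.06 in *fer*. The share of DGAT3 was 81.2% ± 1.65 in WT and 89.1% ± 1.15 in *fer*, and that of PDAT1 was 9.04% ± 0.29 and 9.45% ± 1.25. In WT the means of PDAT1, LDAP3, DGAT2, SDP1 and LDIP ran in this order from 102 down to 82.0 normalized reads, and each gene overlapped the next. Every WT library of PDAT1 lay above every one of LDIP, and DGAT1 lay below all 5. In *fer* DGAT2 was the lowest of the 9 genes.

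DGAT2 lies next to the mutated gene, and its neighbours were therefore examined. The end of DGAT2 is 4824 bases from the near end of FER, and both genes fall within 10354 bases of chromosome 3. Between them lie AT3G51530 and AT3G51540, and the latter was not analysed here, nor were AT3G51560 and AT3G51570 on the other side of FER. AT3G51530 (19112694 to 19114643, minus strand) is the neighbour whose 3′ end overlaps that of DGAT2 by 67 bases. AT3G51530 had 16.0, 16.1 and 16.0 normalized reads in WT and 1.26, 0.082 and 0.87 in *fer*, at least 5.34-fold lower (limma, adjusted p = 1.0e-04). Reads from the overlap may be assigned to either gene or left out, since the sources used here do not state whether strand was counted. No 50-base window in the last 400 bases of DGAT2, AT3G51530 or FER occurs elsewhere in the genome, nor does any of the other 8 genes' windows.

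Within 20 kb of FER, 10 other genes were analysed, and 2 of them, DGAT2 and AT3G51530, were called. Both were lower in *fer*, beside 14.6% of all genes called and 4.52% called and lower. The gene beyond DGAT2, AT3G51510, stood at -0.28 ± 0.10 (SE) on the log2 scale (limma, adjusted p = 0.074). It was called, and lower in *fer*, under 2 other scalings and without *fer* column 2. AT3G51500, GLR3.6, TMT3 and AT3G51470, farther out on the same side, had adjusted p-values of 0.34 to 0.86 in limma. On the other side of FER the nearest genes analysed were AT3G51580, LTP5 and NPU, with log2 fold changes of 0.27, -0.02 and 0.25 and adjusted p-values of 0.31 to 0.92 in limma. With 1 insertion line, an effect of the altered locus on DGAT2 and an effect of the loss of FER cannot be told apart.

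**Figure D2:**
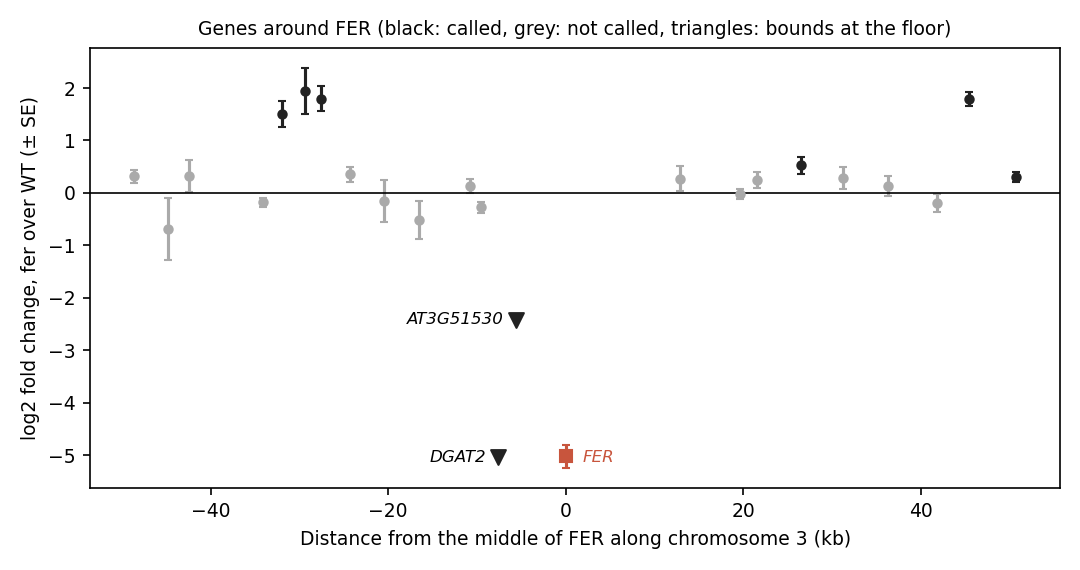
Log2 fold change of *fer* over WT (± SE) for genes within 50 kb of FER, by the distance of their middle from the middle of FER in kb. Black marks were called and grey marks were not. Triangles for DGAT2 and AT3G51530 are bounds at the floor, the red square is FER at -5.02, and TMT3 and AT3G51400, at the floor in WT, are not drawn.

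The lipase SDP1 (AT5G04040, chromosome 5, 1089342 to 1093204, plus strand), which starts the breakdown of triacylglycerol, had 111.7, 74.5 and 88.3 normalized reads in WT. In *fer* it had 113.8, 96.2 and 134.9. The groups overlapped, and the log2 fold change was 0.33 ± 0.17 (SE). Levels of SDP1 and of PDAT1, opposite steps of the same pool, were similar, with a ratio of SDP1 to PDAT1 of 0.90 ± 0.22 (SD, n = 3) in WT and 1.05 ± 0.33 in *fer*.

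Among the droplet proteins, the caleosin differed most. CLO3 (AT2G33380, also RD20, chromosome 2, 14144831 to 14146555, minus strand) encodes a calcium-binding peroxygenase of leaf lipid droplets and is known for its induction by drought, salt and abscisic acid. It had 655.2, 599.5 and 518.8 normalized reads in WT and 1647, 1444 and 1646 in *fer*. Every *fer* library was far above every WT library. The means were 591.2 ± 68.6 and 1579 ± 117 (SD, n = 3), and the log2 fold change was 1.42 ± 0.09 (SE). CLO3 was called under every alternative tried, with log2 fold changes of 1.32 to 1.50.

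LDAP1 (AT1G67360, chromosome 1, 25236781 to 25238216, minus strand), a coat protein of droplets outside seeds, was the steadiest of the 9 genes in WT. It had 581.9, 592.5 and 588.2 normalized reads there, a coefficient of variation of 0.91%, and 745.4, 846.5 and 808.9 in *fer*. The groups did not overlap, the log2 fold change was 0.44 ± 0.08 (SE), and LDAP1 was called except in limma without the trend.

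LDAP3 (AT3G05500, chromosome 3, 1593182 to 1595099, plus strand), a relative of LDAP1, had 135.1, 90.5 and 78.0 normalized reads in WT and 137.8, 107.8 and 137.7 in *fer*. WT column 1 was as high as *fer*, and the groups overlapped. The log2 fold change was 0.36 ± 0.18 (SE), and without WT column 1 it was 0.59 and LDAP3 was called. LDIP (AT5G16550, chromosome 5, 5405346 to 5406887, plus strand), which encodes a protein that binds LDAPs and takes part in droplet formation, had 89.4, 73.4 and 83.1 normalized reads in WT and 123.4, 67.7 and 80.3 in *fer*. Its *fer* libraries spanned those of WT, with a log2 fold change of 0.10 ± 0.20 (SE).

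The makeup of 3 droplet protein transcripts, CLO3, LDAP1 and LDAP3, differed with genotype. These genes were picked with their values known, LDIP is not among them, and the shift follows the difference in CLO3. The 15 further droplet proteins analysed, described below, had a median log2 fold change of 0.06. The sum of CLO3, LDAP1 and LDAP3 was 1280 ± 93.7 normalized reads in WT and 2507 ± 99.3 in *fer* (SD, n = 3). CLO3 and LDAP1 were level in WT, at a ratio of CLO3 to LDAP1 of 1.13, 1.01 and 0.88 in the 3 libraries, while in *fer* this ratio was 2.21, 1.71 and 2.03. CLO3 made up 46.1% ± 2.06 of the sum in WT and 62.9% ± 2.49 in *fer*. The ratio of LDAP1 to LDAP3 was 6.13 ± 1.66 in WT and 6.38 ± 1.30 in *fer*, and its ranges overlapped. CLO3 was the most abundant of the 9 genes in *fer*, where it passed DGAT3.

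**Figure D3:**
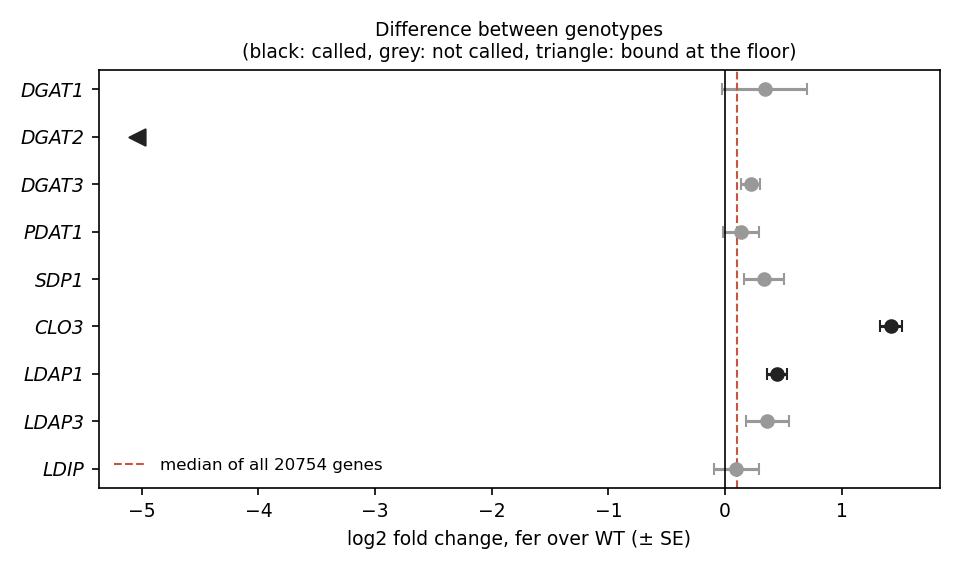
Log2 fold change of *fer* over WT (± SE, 3 libraries each) for the 9 genes, black where called and grey where not, with the median of all 20754 genes as a dashed line at 0.10. DGAT2 is a bound at the floor, CLO3 stands at 1.42 and LDAP1 at 0.44, and the others lie between 0.10 and 0.36.

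Further genes of the same pathways were then compared, taken from 3 lists compiled by function with the 9 genes left out. Of 25 genes of glycerolipid assembly, 23 were analysed, of which 3 rose and 1 fell. This was 17.4% of the list, near the 14.6% of all genes, and under median of ratios scaling or quantile normalization 3 were higher and 3 lower. The median log2 fold change was 0.08. PES2 and PES1, which encode phytyl ester synthases of the chloroplast that esterify phytol and diacylglycerol in ageing or starved leaves, rose most. PES2 had 39.5, 29.2 and 26.4 normalized reads in WT and 116.8, 149.7 and 145.6 in *fer*, a log2 difference of 2.09 ± 0.19 (SE; limma, adjusted p = 2.5e-07). PES1 rose from 19.6 ± 3.98 to 60.1 ± 9.11 (SD, n = 3), a log2 difference of 1.57 ± 0.25 (limma, adjusted p = 1.7e-04). The senescence marker SAG12 was higher in the same libraries (25.3 to 48.2 against at most 0.39 in WT), and its part in the results on PES1, PES2 and CLO3 was not tested. LACS4, a long-chain acyl-CoA synthetase, rose by 0.39 ± 0.09 (SE) on the log2 scale (limma, adjusted p = 0.0080), a call that was lost without *fer* column 3 and in limma without the trend. FAD3, the desaturase that makes linolenic acid in the endoplasmic reticulum, fell from 56.0 ± 6.39 to 32.4 ± 9.36, with an adjusted p of 0.027 in limma. The call of FAD3 held only without *fer* column 3 when 1 library was left out (log2 fold changes of -1.02 to -0.65). It was also lost in limma without the trend. The enzymes of the earlier acylation steps GPAT9 and LPAT2 had log2 fold changes of 0.10 and -0.02, and the regulator WRI1 had 0.08. PDAT2 was not analysed here.

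Of 24 further droplet proteins, 15 were analysed, of which 2 rose and 0 fell in limma, with 3 at an unadjusted p under 0.05 and a median log2 fold change of 0.06. The called share of 13.3% was near the 14.6% of all genes. DOX1, an alpha-dioxygenase known to act with CLO3 on leaf droplets to make an antifungal oxylipin, had 6.32, 15.1 and 9.45 normalized reads in WT and 17.5, 24.2 and 30.8 in *fer*. Every *fer* library lay above every WT library, and the adjusted p was 0.038 in limma. The call was lost in 4 of 5 other settings and without WT column 1, WT column 3, *fer* column 2 or *fer* column 3, where 1 library left out gave log2 fold changes of 0.92 to 1.49. VAP27-1, a protein of membrane contact sites, rose from 411.6 ± 28.1 to 538.2 ± 11.5 (SD, n = 3), and was called (limma, adjusted p = 0.0067) except without WT column 2 and without the trend. The further relatives of CLO3 and LDAP1 that were analysed, CLO4, CLO6 and LDAP2, lay below both genes in each genotype and were not called. CLO4 had means of 39.5 and 42.5 normalized reads in WT and *fer* and LDAP2 means of 12.3 and 12.8. CLO6 was at most 6.70 in any library. The droplet-forming seipins SEIPIN2 and SEIPIN3 had log2 fold changes of -0.34 ± 0.31 and -0.21 ± 0.34 (SE). CLO1, CLO2, CLO5, CLO7 and SEIPIN1 were not analysed here.

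Of 19 genes of lipolysis and beta-oxidation, 18 were analysed, of which 6 rose and 0 fell in limma, with 9 at an unadjusted p under 0.05, beside 10.0% of all genes called and higher in *fer*. The median log2 fold change was 0.39. SAG12 was higher (25.3 to 48.2 against at most 0.39 in WT) and the summed mesophyll markers lower (102400 to 105600 against 136000 to 139300) in the same *fer* libraries, and their part in this result was not tested. ACX1, the peroxisomal acyl-CoA oxidase of long chains, had 368.8, 278.7 and 269.4 normalized reads in WT and 575.5, 545.3 and 616.8 in *fer*, a log2 difference of 0.93 ± 0.11 (SE; limma, adjusted p = 9.2e-06). ACX4, which acts on short chains, rose from 318.6 ± 6.94 to 561.5 ± 58.3 (SD, n = 3), with an adjusted p of 7.9e-06 in limma. The thiolases KAT5 and PED1 had log2 fold changes of 0.70 and 0.37, the multifunctional enzyme AIM1 had 0.50 and the acyl-CoA synthetase LACS6 had 0.63. Their adjusted p-values in limma were 1.3e-04 for KAT5, 0.024 for PED1, 0.0010 for AIM1 and 0.025 for LACS6. ACX1, AIM1 and PED1 also serve the last steps of jasmonate synthesis. ACX5, another acyl-CoA oxidase of the list, had means of 17.4 normalized reads in WT and 10.6 in *fer*. Its log2 fold change of -0.88 ± 0.46 (SE) was not called. The calls of PED1 and LACS6 were lost under both other scalings and in limma without the trend, and those of KAT5 and AIM1 in limma without the trend. Those of PED1 and LACS6 were also lost when WT column 3, or either of *fer* columns 1 and 3, was left out, that of PED1 without WT column 1 too and that of LACS6 without WT column 2, with log2 fold changes of 0.31 to 0.46 for PED1 and 0.51 to 0.71 for LACS6. CGI58, a regulator of neutral lipid in leaves, had 49.3 ± 3.60 and 58.3 ± 4.44 normalized reads (SD, n = 3), with an adjusted p of 0.47 in limma. Its partner PXA1, which carries fatty acids into peroxisomes, had an adjusted p of 0.052 in limma. ICL and MLS, the enzymes of the glyoxylate cycle used in seedlings, reached at most 3.12 normalized reads in any library. SDP1L was not analysed here.

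**Figure D4:**
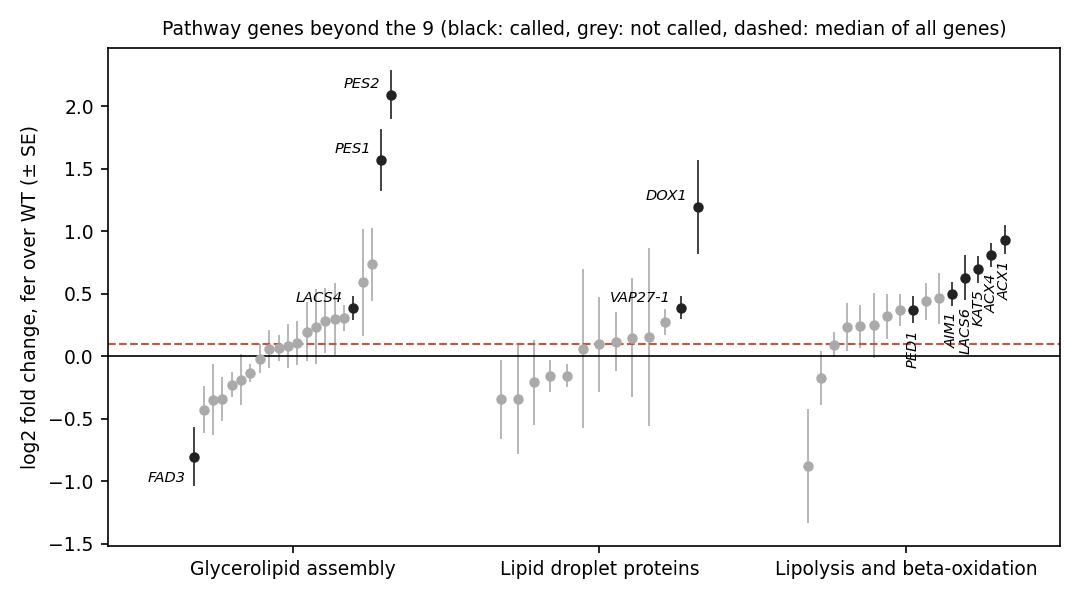
Log2 fold change of *fer* over WT (± SE) for genes of the 3 pathway lists, ordered within each list, black where called and grey where not, with the median of all genes dashed. Genes at the floor in a genotype are left out. PES2 and PES1 stand highest at 2.09 and 1.57, and the called genes of lipolysis and beta-oxidation lie between 0.37 and 0.93.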

How the data were processed

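Libraries of total RNA from rosette leaves were sequenced by the authors in 2 runs (50-base reads from 1 end) and the runs were joined, aligned to TAIR10 with STAR and counted per gene with HTSeq in intersection-nonempty mode. The deposited values are a signal, namely reads per gene after TMM normalization by the authors with edgeR at nearly equal totals; how low genes were removed is not given in the sources used here. Versions and the use of strand are not given in the sources used here. A further deposited column holds the authors' log2 fold change and was not used. The study gives an average number of reads per sample, but the depth of each library is not given in the sources used here. In WT column 2, 100.0% of values between 0.5 and 20 were whole multiples of 1 step (1.005, within 0.05 reads). In the other libraries only 13.6% to 70.2% were, so no count test or counting interval was used, although the plan allowed for one.

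Genotypes were compared on log2(value + 1) with limma 3.58.1 in R 4.3.3 (eBayes with trend, two-sided, Benjamini-Hochberg over 20754 genes), and fold changes of low genes are understated on this scale. A genotype whose libraries all lay at or under 3 normalized reads was at the floor, and folds against it are bounds. The fit was tried on simulated data with independent normal noise and with larger changes than most given here, none put into genes near the floor. That trial does not tell how well small changes, or changes at the floor, are found. Columns carry the genotype but no replicate number, and column numbers pair nothing. The 9 genes, the lists and the tests were chosen with earlier results of these data known. Genes named are FER, the 9 genes, the called genes of each list (at most 6, by size of change), relatives and partners of the 9 genes, genes within 20 kb of FER, and the 3 genes most like DGAT2 and CLO3. AT3G51540, AT3G51560, AT3G51570, GPAT9, LPAT2, WRI1, ACX5, ICL, MLS and the 6 called genes between 20 and 50 kb from FER were named in addition with their results known. Alternatives were a pseudocount of 0.1, a minimum mean of 5, quantile normalization, scaling by median of ratios, limma with no trend, an adjusted p under 0.01, a window of 50 kb and leaving out each library. Names and coordinates are those of RefSeq on TAIR10.1, whose nuclear chromosomes are those of TAIR10; names absent there (LDAP, LDIP, seipins, some caleosins) follow common use.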

Additional observations from a re-analysis of the deposited data

How the results depend on the processing

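All 9 genes kept the sign of their log2 fold change under the alternatives except PDAT1 and LDIP, neither of them called, whose values ran from -0.0033 to 0.22 and from -0.15 to 0.28. The number of the 9 called was 2 in limma without the trend and 3 to 4 without 1 library, with LDAP3 as the fourth without WT column 1. FER ran from -5.23 to -4.88 without 1 library. Median of ratios scaling moved the median of all genes from 0.10 to 0.01 and gave 1514 higher and 1441 lower genes, against 2083 and 938, and quantile normalization moved it to -0.04 and gave 1353 and 1450. Limma without the trend called 1130 genes in all, against 3021, and 2 genes of glycerolipid assembly, 0 droplet proteins (2 at an unadjusted p under 0.05) and 2 genes of lipolysis and beta-oxidation. Both other scalings called 6 genes of glycerolipid assembly, 3 higher and 3 lower. An adjusted p under 0.01 left 1682 genes. Among droplet proteins 1 gene was called, VAP27-1, with a pseudocount of 0.1, under median of ratios scaling and under quantile normalization, and the median of that list ran from -0.23 to 0.10 over the settings. Within 50 kb of FER 8 of 25 genes were called, 6 higher and 2 lower in *fer*, beside 14.6% of all genes. Leaving out 1 library called 1907 to 2503 genes in all, 3 to 4 of glycerolipid assembly, 1 to 2 droplet proteins, 4 to 6 of lipolysis and beta-oxidation and 2 to 3 near FER, with 1973 genes without WT column 2 and 1907 without *fer* column 3. The causes were not tested. No paired analysis was possible because replicate numbers are missing from the column names, and the count tests on recovered reads were not run because whole reads were not recovered in 5 of the 6 libraries.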

Other observations

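The genes whose log2(value + 1) ran most like that of CLO3 over the 6 libraries, among 16035 genes with a mean of at least 10, were AOC1, CYP71B23 and AT3G20370, with Pearson's r of 0.9999, 0.9987 and 0.9987. AOC1, an allene oxide cyclase of jasmonate synthesis, had means of 267 normalized reads in WT and 1247 in *fer*. For DGAT2 they were AT5G43960, GH9A1 and FER, with r of 0.9988, 0.9986 and 0.9982. The 6 libraries fall into the 2 genotypes, so each r mostly repeats the difference between genotypes and is given as a description only. The log2 fold changes of these genes were -0.63 for AT5G43960, -0.38 for GH9A1 and -5.02 for FER.

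Within 50 kb of FER, 25 other genes were analysed, of which 10 lay within 20 kb. Of the 25, 6 were called and higher in *fer*, beside 10.0% of all genes, and all 6 lay between 20 and 50 kb from FER. YLS2, AT3G51440 and AT3G51450 are neighbours on the DGAT2 side and were higher by 1.50, 1.94 and 1.80 on the log2 scale (limma, adjusted p of 2.6e-04, 0.0051 and 1.8e-05). AT3G51620, AT3G51660 and AT3G51670 lie on the other side, at 0.52, 1.79 and 0.31, and AT3G51670 lost its call whichever of the 6 libraries was left out. AT3G51620 lost its call without WT column 2 or any 1 of the *fer* columns, and AT3G51440 without *fer* column 3. AT3G51620 and AT3G51670 were also not called under median of ratios scaling or quantile normalization, and these genes and AT3G51440 were not called in limma without the trend.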
